A study of Mus musculus with 14 samples.

Results

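Accessible chromatin of 5 mouse small cell lung cancer lines grown from metastases was compared with that of 2 lines grown from lung tumors. The metastasis lines had 10 of the 14 ATAC-seq libraries of the series and the lung tumor lines had 4, with 2 libraries per line. Lines 1373M1 (liver), 12N1G and N2N1G (both lymph node) carried the genotype RPR2. Lines 1398M1 and 1399M4 (both liver) carried RPR2;Nfibf/f. The lung tumor lines 1398P2 and 1399P1 also carried RPR2;Nfibf/f. In this field RPR2 stands for loss of Rb1, Trp53 and Rbl2, which all 7 lines share. Nfibf/f denotes Nfib alleles that Cre can delete. The labels give no age, treatment or state of the Nfib allele after recombination. No RPR2 lung tumor line was among the samples, so tissue and genotype cannot be told apart over all lines, and values from the 4 Nfibf/f lines alone are given beside the main results. Each line is a culture from 1 tumor, cells were taken from suspension, and lines that share a number (1398M1 with 1398P2, 1399M4 with 1399P1) were counted as separate lines although their independence is not known. Separate cultures are not stated for the libraries of 1 line. Their spread may thus be technical, p-values measure only the spread between these samples, and the line was the unit of every test.

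ATAC-seq uses a transposase to insert sequencing adapters where DNA is not covered by nucleosomes, so peaks mark promoters, enhancers and other open elements. Small cell lung cancer is a neuroendocrine tumor that spreads early to liver and lymph nodes. The transcription factor NFIB is known in mouse models of this cancer for opening distal chromatin as tumors progress to metastasis, and Mycl is a MYC family gene that is often amplified in it.

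Peaks of all libraries on chromosomes 1 to 19 and X were merged where they shared at least 1 bp, which gave 177577 regions. A region was called open in a line when both of its libraries had a peak there and closed when neither had. A total of 119314 regions were open in at least 1 line and 17795 in all 7. A metastasis-specific region was open in all 5 metastasis lines and closed in both lung tumor lines, and a lung-tumor-specific region was the reverse. The lists held 65018 to 84227 peaks in 13 libraries and 33560 in replicate 2 of 1398P2. Its background floor of 0.507 fragments per bp was also the lowest, the others having 0.632 to 1.134. A region without a peak is therefore one without a peak at the depth of that library. All 16 neuroendocrine genes listed, among them Insm1, Chga and Syp, had a peak in every line. No region open in a line lay in or within 10 kb of the hepatocyte markers Afp, Serpina1a and Cyp3a11. The same held for Cd8a and Ms4a1 of the lymphocyte markers and for Col3a1 of the fibroblast markers.

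Some of the promoter windows that differed between the tissues, and those of 2 genes described below, are printed to show the sequence behind the peaks. They run from 250 bases before to 50 bases after the start of the gene, 5′ to 3′ on the strand of the gene, from a RefSeq table of GRCm38.p6. Capitals mark an E-box (CACGTG), the CCAAT box (read as ATTGG where it lies on the other strand) or an AP-1 motif (TGANTCA). Both strands were searched for these, for CAGCTG, for TGACAG (a MEIS core) and for the full NFI palindrome, and no 2 matches overlapped in the windows shown. Rcor2, a corepressor that works with the neuronal repressor REST, lies at chr19:7267144-7267443 (+) and had a peak in 10 of 10 metastasis and 0 of 4 lung tumor libraries. The window of Meis1 (chr11:19018920-19019219, -) had one in 10 and 3 libraries, and the most upstream of 4 windows of Zeb2 (chr2:45117393-45117692, -) in 8 and 0. Another Zeb2 window (chr2:45110228-45110527, -) had a peak in 10 and 3 libraries, and the other two had none. Tor4a, a torsin-family ATPase (chr2:25196764-25197063, -), and Slc6a14, an amino acid transporter (chrX:21714650-21714949, +), each had a peak in 0 metastasis and all 4 lung tumor libraries.
Rcor2: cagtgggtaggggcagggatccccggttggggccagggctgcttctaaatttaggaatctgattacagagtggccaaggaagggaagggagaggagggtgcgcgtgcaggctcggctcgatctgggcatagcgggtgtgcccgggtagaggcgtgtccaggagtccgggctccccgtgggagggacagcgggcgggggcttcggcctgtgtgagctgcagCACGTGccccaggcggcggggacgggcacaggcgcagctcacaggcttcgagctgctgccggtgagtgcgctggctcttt
Meis1: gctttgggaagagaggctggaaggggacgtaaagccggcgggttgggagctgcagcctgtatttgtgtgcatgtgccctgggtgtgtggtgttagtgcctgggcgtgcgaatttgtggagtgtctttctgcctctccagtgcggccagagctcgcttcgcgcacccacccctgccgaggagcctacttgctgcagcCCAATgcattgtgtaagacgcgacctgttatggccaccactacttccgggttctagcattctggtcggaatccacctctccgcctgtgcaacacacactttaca
Zeb2: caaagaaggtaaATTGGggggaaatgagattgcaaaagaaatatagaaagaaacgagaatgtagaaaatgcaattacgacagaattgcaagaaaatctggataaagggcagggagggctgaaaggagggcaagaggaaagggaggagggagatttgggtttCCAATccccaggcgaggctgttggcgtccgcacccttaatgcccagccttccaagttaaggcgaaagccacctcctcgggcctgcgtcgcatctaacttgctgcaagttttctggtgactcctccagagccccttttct
Tor4a: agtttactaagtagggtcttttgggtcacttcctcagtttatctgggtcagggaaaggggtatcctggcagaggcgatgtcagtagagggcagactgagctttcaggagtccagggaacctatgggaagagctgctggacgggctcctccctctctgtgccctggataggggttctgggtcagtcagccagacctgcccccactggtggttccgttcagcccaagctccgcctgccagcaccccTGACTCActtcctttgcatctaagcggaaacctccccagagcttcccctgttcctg
Slc6a14: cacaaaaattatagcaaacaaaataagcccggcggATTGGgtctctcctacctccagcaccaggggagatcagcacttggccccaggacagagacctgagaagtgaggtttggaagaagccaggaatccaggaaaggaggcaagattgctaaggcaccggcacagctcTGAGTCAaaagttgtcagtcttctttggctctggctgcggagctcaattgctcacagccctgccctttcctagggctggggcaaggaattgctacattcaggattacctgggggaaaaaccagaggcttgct
Of 21044 promoter windows of 17273 genes, 7.91% held CACGTG, 15.7% CAGCTG, 38.5% a CCAAT box, 18.3% TGACAG, 7.04% an AP-1 motif and 0.0333% the NFI palindrome. A match describes the letters only. Peaks covered 9677 of the windows in all 14 libraries and 6867 in none. A peak in all 10 metastasis libraries and no lung tumor library was found at 4 windows, those of Rcor2, Sv2b (a synaptic vesicle protein), Rgr (a retinal opsin) and C77080. The reverse pattern was found at 15 windows of 13 genes, 3 of them starts of Tekt2. Among these genes were Tor4a, Slc6a14, Mapkapk3 (a stress-activated kinase), Fbp1 (an enzyme of gluconeogenesis), Chn1 (a Rac GTPase-activating protein), Rec8 (a meiotic cohesin), Trim5 and Trim12a (antiviral TRIM proteins). The printed windows are not typical in their motifs. Of the 4 windows only that of Rcor2 held CACGTG, and of the 15 only those of Tor4a and Slc6a14 held an AP-1 motif.

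The first question was how many regions separate metastasis lines from lung tumor lines. There were 138 metastasis-specific and 339 lung-tumor-specific regions, or 0.116% and 0.284% of the regions open in at least 1 line. To read these counts, every other choice of 2 of the 7 lines was set against the remaining 5 in the same way, which gives 21 choices and a smallest possible one-sided exact permutation p of 0.0476. The lung tumor pair ranked 5 of 21 in both directions (exact permutation p = 0.238 each), so neither count stood apart from those of the other pairs. The pairs with higher counts include lines of 1 tissue, lymph node for 12N1G with N2N1G and liver for 1373M1 with 1398M1 or 1399M4, and pairs of a liver and a lung tumor line. More regions were open in 5 lines but closed in 1399M4 and 1398P2 (771), in 12N1G and N2N1G (645), in 1373M1 and 1399M4 (187) and in 1398M1 and 1398P2 (183). More regions were open only in the lymph node lines 12N1G and N2N1G (3576), in 1399M4 and 1399P1 (866), in 1373M1 and 1398M1 (655) and in 1373M1 and 1399M4 (360). At the other end, 0 regions were closed only in 12N1G and 1399P1.

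**Figure D1:**
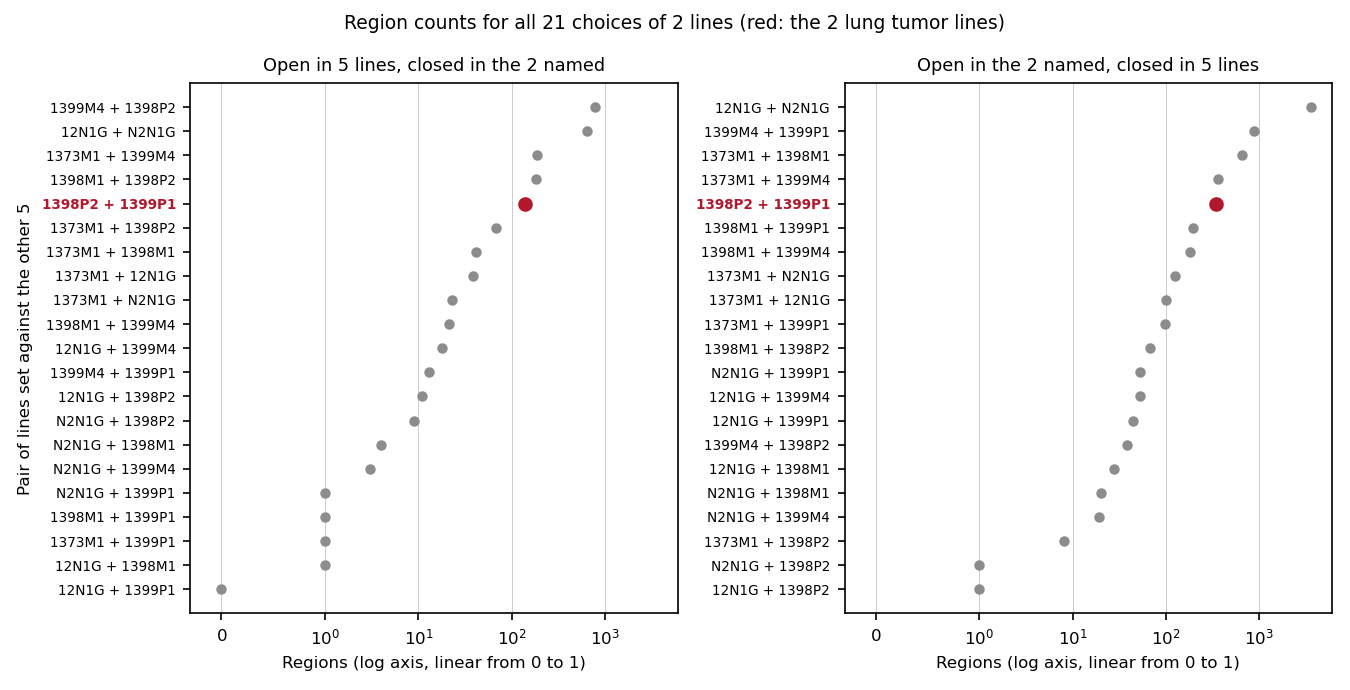
Counts of regions (log axis, linear from 0 to 1) open in 5 lines and closed in the 2 named (left), or open in the 2 named and closed in 5 (right), for all 21 choices of 2 lines. The lung tumor pair, in red, has 4 pairs above it in both panels, at 138 and 339 regions.

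Replicate 2 of 1398P2 bore on the lung-tumor-specific count but not on the other. Without it, 138 metastasis-specific and 1586 lung-tumor-specific regions were counted, ranks 8 and 2 of 21, and the rank of the second gave an exact permutation p of 0.0952. Without the interval around Mycl (chromosome 4, 121000001 to 124000000), where background was higher in metastasis lines (described below), the counts were 130 and 337, both at rank 5. Without both, they were 130 and 1584 (exact permutation p = 0.0952 for the second). With equal numbers of peaks taken from every library, they were 107 at rank 4 (exact permutation p = 0.19) and 507 at rank 2 (exact permutation p = 0.0952). Among the 4 Nfibf/f lines alone, 780 regions were open in 1398M1 and 1399M4 and closed in both lung tumor lines, rank 3 of 6 choices (exact permutation p = 0.5), and 443 were the reverse. In the merge of all libraries the first of these sets held 784 regions, of which 138 were open in all 3 RPR2 lines, 249 in 1 of them and 274 in none. Of the 444 regions of the reverse set in that merge, 339 were closed in all 3 RPR2 lines, 37 in 2, 46 in 1 and 22 in none.

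Few regions missing from the lung tumor lines were shared by the metastasis lines. Of the regions closed in both lung tumor lines, 21188 were open in 1 metastasis line, 7860 in 2, 3068 in 3, 1061 in 4 and 138 in all 5. The line not open was 1399M4 in 808 of the 1061 regions, and 1399M4 was closed, with no peak in either library, in 714 of these. The corresponding numbers were 130 for 1398M1, 78 for 1373M1, 24 for N2N1G and 21 for 12N1G. Without 1399M4 the metastasis-specific count was 949 and the lung-tumor-specific count 1148. Of the regions open in both lung tumor lines, 17795 were open in all 5 metastasis lines, 2745 in 4, 2082 in 3, 2044 in 2, 2140 in 1 and 720 in none, and the last number includes regions with a peak in 1 library of a metastasis line.

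**Figure D2:**
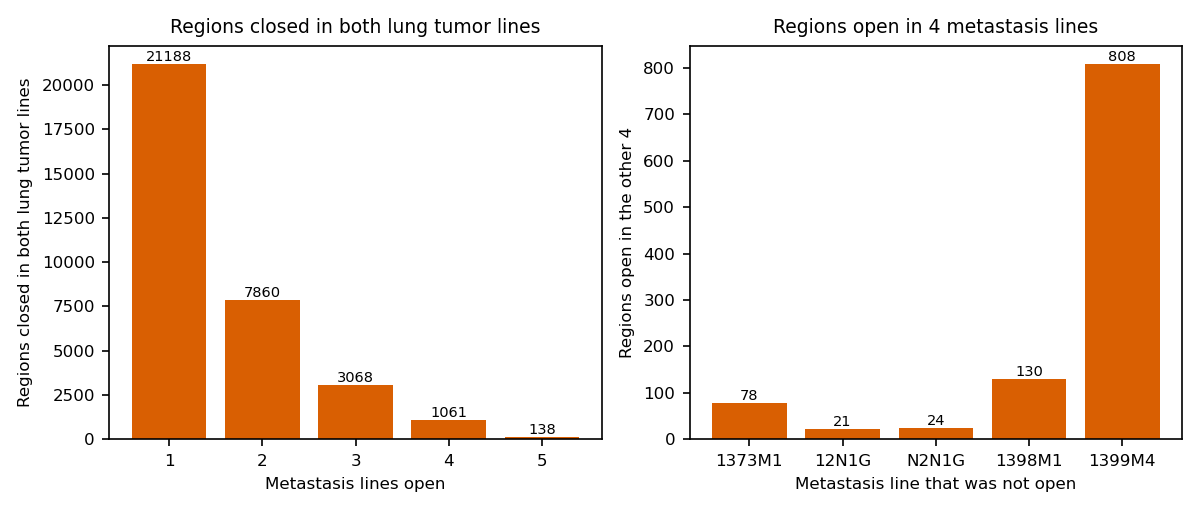
Left, regions closed in both lung tumor lines by the number of metastasis lines in which they were open; the bars fall from 21188 at 1 line to 138 at 5. Right, the metastasis line that was not open among the 1061 regions open in the other 4; 1399M4 accounts for 808.

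By line, 20.1% of the 57493 open regions of 1373M1 were closed in both lung tumor lines, 19.7% of 59276 in 12N1G, 19% of 58721 in N2N1G, 10.9% of 58459 in 1398M1 and 17.2% of 60310 in 1399M4. Conversely, 2.4% of the 28947 open regions of 1398P2 and 5.35% of the 66396 of 1399P1 were closed in all 5 metastasis lines. A region open in 1398P2 needs a peak in its replicate 2, which had the shortest peak list. Of the 3551 regions open in 1399P1 and closed in all metastasis lines, 339 had a peak in both 1398P2 libraries, 1246 in replicate 1 alone, 11 in replicate 2 alone and 1955 in neither. Within the pairs that share a number, 11086 regions were open in 1398M1 and closed in 1398P2, 2248 were the reverse, and 25402 were open in both. For 1399M4 and 1399P1 these numbers were 12498, 18395 and 41911, so the direction of the larger count differed between the pairs.

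Values just outside the rule were as follows. With peaks in 9 metastasis libraries and no lung tumor library there were 179 regions, and the library without a peak was 1399M4 replicate 2 in 52 and 1399M4 replicate 1 in 42. With peaks in all 10 metastasis libraries and 1 lung tumor library there were 204, and that library was 1398P2 replicate 1 in 88 and 1398P2 replicate 2 in 0. On the other side, 1394 regions had peaks in 3 of 4 lung tumor libraries and no metastasis library, and replicate 2 of 1398P2 was the one without a peak in 1246. A further 275 had peaks in all 4 lung tumor libraries and 1 metastasis library.

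The specific regions lay mostly away from gene ends. Within 1 kb of either end of a protein-coding gene lay 8 of the 138 metastasis-specific regions (5.8%) and 20 of the 339 lung-tumor-specific ones (5.9%), against 13.9% of all open regions and 55.2% of those open in every line. Inside a gene lay 52.2% and 59%, against 57.1% of all open regions. Their median lengths were 722 and 621 bp, beside 604 bp for all open regions and 1119 bp for those open in every line. The median percentile of fold enrichment, ranked within each library, was 48.5 for metastasis-specific and 51 for lung-tumor-specific regions, against 45.1 for all open regions and 77.9 for those open in every line. Per 1000 open regions, metastasis-specific ones ranged from 0.392 on chromosome 12 to 1.65 on chromosome 2, and lung-tumor-specific ones from 1.6 on chromosome 17 to 4.52 on chromosome 7.

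The metastasis-specific region with the highest mean percentile, 85.9, lay inside Palmd (chromosome 3, 116928793 to 116929430), which encodes the membrane-linked protein palmdelphin. The next were inside Eml6, a microtubule-binding protein (chromosome 11, 29774386 to 29775107, percentile 82.2), and 27034 bp from Tgfbi, an extracellular matrix protein (chromosome 13, 56581551 to 56582552, percentile 80.5). Others of the top 8 lay inside Macrod2, a hydrolase of ADP-ribose marks (77), Bcl2l1, the anti-apoptotic BCL-XL (74.9), and Hipk2, a kinase of the stress response (74.7), at a gene end of Ipmk, an inositol phosphate kinase (77.4), and 11598 bp from Ostf1 (77.5). Gene ends with a metastasis-specific region included those of Ipmk, Rgr, Cdh12 (a neuronal cadherin), Bmp1 (a procollagen protease), Gtpbp3, Zcchc3 and, in 1 shared region, Bmp8b and Ppie.

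The strongest lung-tumor-specific region lay inside M1ap, a meiosis gene (chromosome 6, 82952063 to 82952835, mean percentile 95.2). It was followed by a region 74127 bp from Irx6, an Iroquois homeobox gene (chromosome 8, 92599513 to 92600162, percentile 92.5), and by one inside Armh3 (chromosome 19, 45974916 to 45975277, percentile 90.6). Regions inside Lmbrd1, a lysosomal cobalamin transport gene (89.5), Prim2, the large primase subunit (87.8), and Ttll1, a tubulin polyglutamylase (85.7), and one at the ends of Hcn3 and Pklr, an ion channel and the liver pyruvate kinase (84.4), were also among the top 8. Gene ends with such a region included those of Csf2, the cytokine GM-CSF (chromosome 11, 54247458 to 54248247), Mapkapk3, Trim5, Trim12a, Slc6a14, Tor4a, Il1f8 (an interleukin-36 cytokine), Igsf5, Ces1b, Creld1 with Prrt3, Klk1b16, AI467606, Esam with Vsig2, and Sec23b.

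Counted with 10 kb on either side, 98 of 21627 protein-coding genes had a metastasis-specific region, 265 had a lung-tumor-specific one and 1 had both. Trit1, a tRNA-modifying enzyme next to Mycl, had 3 metastasis-specific regions, and Dennd1a, an endocytic exchange factor, had 2. Ntrk2, the receptor for the neurotrophin BDNF, Smad2, a mediator of TGF-beta signaling, Vps53 and Pdxdc1 had 2 lung-tumor-specific regions each. Of the 154 genes in the 13 lists examined, 3 had a metastasis-specific region, namely Mycl, Zeb2 and Tead1, a YAP partner. A lung-tumor-specific region was found at 2 of the 154, Cd4 and Tek, an endothelial receptor.

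The second question was which genes carried more open regions in one tissue. Regions open in at least 1 line and lying in a gene body or its 10 kb flanks were counted per library where that library had a peak, averaged per line, scaled by the total of the line and tested with limma on log2(number + 0.5), a scale that understates differences of genes with few regions. Meis1, a homeobox gene whose protein is a cofactor of HOX factors, rose in metastasis lines and was the only call among 7067 genes tested (0.0142%). No gene (0%) was called higher in lung tumor lines by limma. At an unadjusted p under 0.05, 318 genes (4.5%) were higher in metastasis lines and 190 (2.69%) in lung tumor lines.

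Meis1 (chromosome 11, 18880428 to 19019651) had 11, 8, 8.5, 10 and 10.5 regions in 1373M1, 12N1G, N2N1G, 1398M1 and 1399M4 (mean of the 2 libraries of a line), against 0.5 in 1398P2 and 2 in 1399P1. The libraries did not overlap, with 7 to 12 in metastasis and 0 to 3 in lung tumor libraries. The means were 9.6 ± 1.29 (SD, n = 5 lines) and 1.25 ± 1.06 (n = 2), and differed by 2.64 ± 0.26 on the log2 scale (SE, limma adjusted p = 0.0298). Of its 17 regions, 14 had no peak in any lung tumor library and 1 was metastasis-specific (18876954 to 18878409). The region over the start of the gene (19018682 to 19021108) had a peak in 10 of 10 metastasis and 3 of 4 lung tumor libraries, all but replicate 2 of 1398P2. Most of the others were open in part of the metastasis lines only, 6 of them in 1 line. In the Nfibf/f lines alone the log2 difference was 2.77 (limma adjusted p = 2.03e-05). The difference was 2.14 to 3.20 over all libraries and lines left out, and the call was lost in 8 of these. Without a metastasis line the limma adjusted p was 0.0514 (1373M1), 0.0805 (N2N1G), 0.111 (1398M1) or 0.0631 (1399M4). It was 0.172 without replicate 1 of 1398P2, 0.0555 without replicate 2 of it, 0.448 without line 1398P2 and 0.119 without replicate 2 of 1399P1. With genotype as a covariate the limma adjusted p was 0.168, and without scaling it was 0.31.

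Of all genes tested, 33 (0.467%), Meis1 among them, had more regions in every metastasis library than in any lung tumor library and 8 (0.113%) had the reverse. Nrg3, a ligand of the receptor ERBB4, had 7, 8.5, 9, 7 and 9.5 regions in 1373M1, 12N1G, N2N1G, 1398M1 and 1399M4, against 1.5 in 1398P2 and 3.5 in 1399P1. Its libraries did not overlap between the tissues. The means were 8.2 ± 1.15 (SD, n = 5 lines) and 2.5 ± 1.41 (n = 2), and their log2 difference was 1.56 ± 0.21 (SE, limma adjusted p = 0.0969). Of the 23 regions of Nrg3 (chromosome 14, 38365102 to 39473235), 16 were open in a single metastasis line and none was metastasis-specific. In the Nfibf/f lines alone Nrg3 passed the test (1.68, limma adjusted p = 0.00143), as it did without replicate 1 of 1399P1 (1.68, limma adjusted p = 0.0345).

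Zeb2, a zinc-finger repressor of E-cadherin known from epithelial-mesenchymal transition and neural crest, had 8, 6.5, 5, 8 and 7.5 regions in 1373M1, 12N1G, N2N1G, 1398M1 and 1399M4, against 1.5 in 1398P2 and 4 in 1399P1. All metastasis libraries were above all lung tumor libraries, with 5 to 9 against 0 to 4. The log2 difference of 1.25 ± 0.25 did not pass (SE, limma adjusted p = 0.499). It was 0.87 without line 1398P2 and 2.35 without replicate 1 of 1398P2, the ends of its range over libraries and lines left out. The region over its start (chromosome 2, 45116610 to 45117584), which holds most of the window printed above, had a peak in 9 of 10 metastasis and 0 of 4 lung tumor libraries. A second region, at 45023936 to 45024993, was metastasis-specific.

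Other genes of lowest p toward metastasis lines did not pass either. Fam135b had a mean of 9.5 regions in metastasis lines and 3.75 in lung tumor lines (log2 difference 1.18, limma adjusted p = 0.119). Arhgap15, a Rac GTPase-activating protein, had 8.2 and 1.5 (2.26, limma adjusted p = 0.353), with 12.5 in 12N1G and 5.5 to 9 in the other metastasis lines. Col22a1, a collagen gene, had 11.6 and 6 (0.84, limma adjusted p = 0.481). Camk4, a calcium-dependent kinase of neurons and T cells, and Rit2, a neuronal Ras-like GTPase, had log2 differences of 0.98 and 2.50. Rit2 had 7.5 regions in 1373M1 and 2.5 in 1399M4, so the metastasis lines differed widely among themselves, and its difference was 1.58 without 1399P1.

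**Figure D3:**
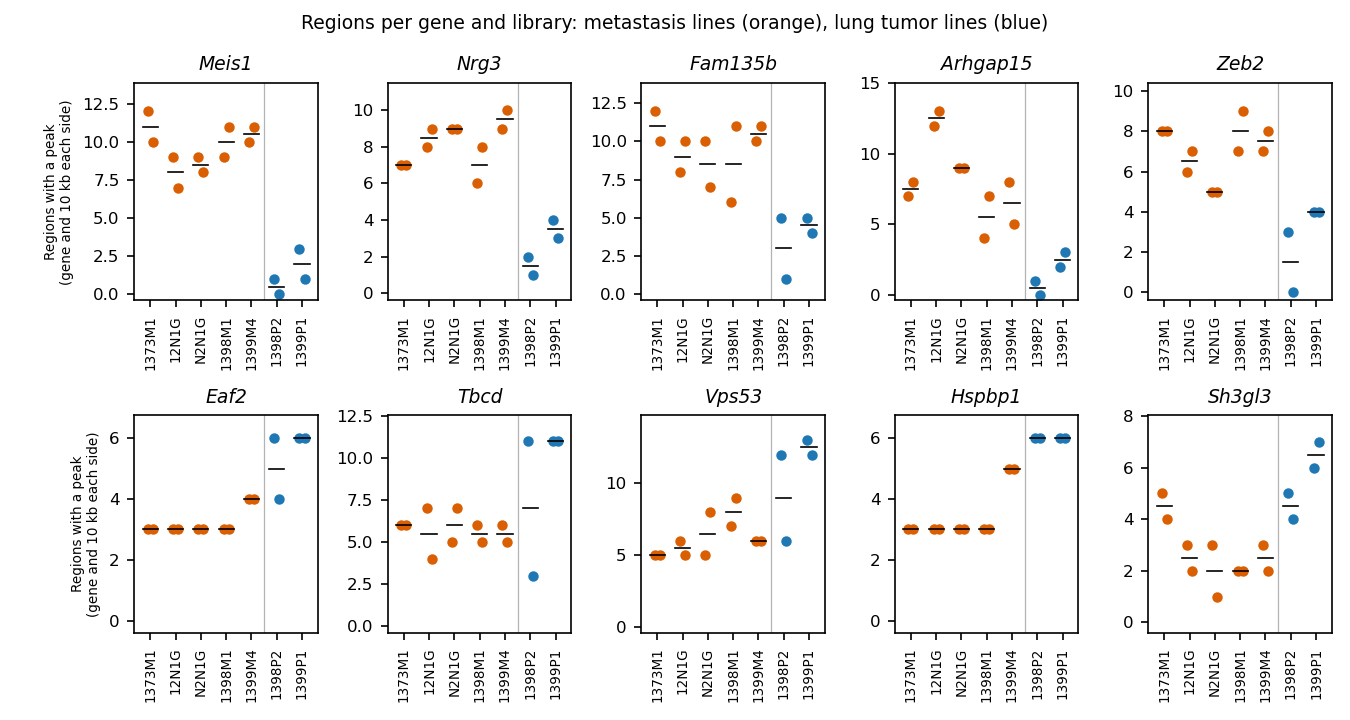
Open regions per gene in each library (points) with the mean of each line, metastasis lines left of lung tumor lines, for 5 genes with more regions in metastasis lines and 5 with more in lung tumor lines. Meis1, the one gene that passed the test, has 7 to 12 regions in metastasis libraries and 0 to 3 in lung tumor libraries.

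No gene with more regions in lung tumor lines passed. Eaf2, a partner of the elongation factor ELL, had 3, 3, 3, 3 and 4 regions in 1373M1, 12N1G, N2N1G, 1398M1 and 1399M4, against 5 in 1398P2 and 6 in 1399P1 (log2 difference -0.77 ± 0.15, SE, limma adjusted p = 0.481). Hspbp1, a co-chaperone of HSP70, had 3, 3, 3, 3 and 5 in the same order of lines, against 6 in both lung tumor lines (-0.83 ± 0.21, limma adjusted p = 0.619), and was 1 of the 8 genes whose libraries did not overlap. Vps53, a subunit of the GARP tethering complex, had 6.2 in metastasis and 10.8 in lung tumor lines (-0.82). Tbcd, a tubulin folding cofactor, had 5.5 to 6 in metastasis lines, 7 in 1398P2 and 11 in 1399P1 (-0.65). Sh3gl3, an endophilin of synaptic endocytosis, had 4.5 in 1373M1, 2 to 2.5 in the other metastasis lines, 4.5 in 1398P2 and 6.5 in 1399P1 (-1.0). The limma adjusted p-values of Rffl, Dhx32, Fbxl2, S100a3, Cyth4, Gm41607 and Tmem229b, the others of the 12 genes of lowest p, were no lower than that of Eaf2. For genes with more regions in 1399P1 than in 1398P2, the short peak list of replicate 2 of 1398P2 lies beside the value. Its part was not tested.

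In the 4 Nfibf/f lines alone, limma called 9 genes higher in the metastasis lines 1398M1 and 1399M4 and 3 higher in the lung tumor lines. Higher were Meis1, Nrg3, Lrp1b (a large lipoprotein receptor relative), the cadherins Cdh12 (log2 difference 2.19) and Cdh18 (1.72), and Ppt1, Cap1, Trit1 and Bmp8b, which flank Mycl. Lower were Ryr3, a calcium release channel (-1.83), Cntn3, a neuronal contactin (-1.75), and Atp10a, a phospholipid flippase (-1.41). With the shared line number as a block, none of these 12 genes was called in either direction.

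The third question was whether the local background of the peaks differed between the tissues. The local background at each summit was solved from the deposited fold enrichment and p-value and divided by the floor of its library. In the 1 Mb bin that holds the start of Mycl (chromosome 4, 122000001 to 123000000) the bin median was 19.1 to 35.3 times the floor in metastasis libraries (median 25.9) and 3.68 to 5.07 in lung tumor libraries (median 4.61). The groups did not overlap. This bin rose in metastasis lines (log2 difference 2.52 ± 0.29, SE, limma adjusted p = 0.0106), 1 of 2 bins called among 2003 (0.0999%), and also in the Nfibf/f lines alone (2.57, limma adjusted p = 0.0212). No bin (0%) was called higher in lung tumor lines by limma, and 69 and 27 bins were higher in metastasis and lung tumor lines at an unadjusted p under 0.05. The call was lost without 1398P2 (limma adjusted p = 0.148) or without 1399P1 (0.113), which leaves 1 lung tumor line, while the difference stayed between 2.42 and 2.62 over all libraries and lines left out.

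The extent of the raised interval differed between metastasis lines. In the bin before it, from 121000001, 1373M1 stood at 2.94 and 3.44 times the floor and the other metastasis libraries at 14.5 to 28.4, against 2.39 to 3.99 in lung tumor libraries. In the bin after it, from 123000001, 1398M1 stood at 6.3 and 7.23 and the other metastasis libraries at 33.2 to 71.6, against 2.33 to 3.13. The bins on either side of these 3 overlapped between the tissues. Neither neighbouring bin passed the test over all lines (log2 difference 2.08, limma adjusted p = 0.817, and 3.53, limma adjusted p = 0.399). Without 1373M1 the bin from 121000001 passed (2.59, limma adjusted p = 0.0027), as it did in the Nfibf/f lines alone (2.45, limma adjusted p = 0.012). Without 1398M1 the bin from 123000001 passed (4.11, limma adjusted p = 0.00128).

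**Figure D4:**
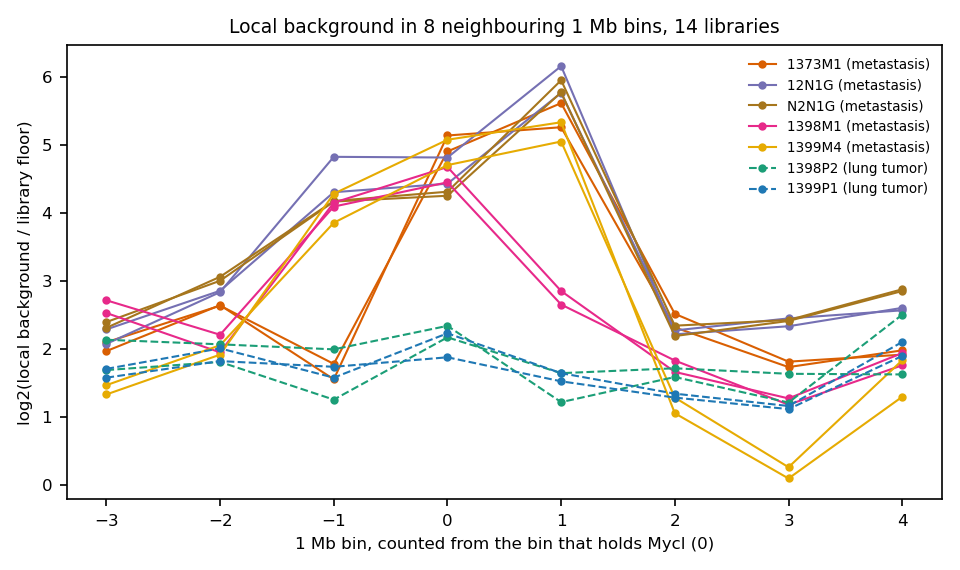
Local background over the library floor (log2) in 8 neighbouring 1 Mb bins counted from the bin that holds Mycl, one line per library, metastasis lines solid and lung tumor lines dashed. At bin 0 all 10 metastasis libraries lie above all 4 lung tumor libraries, and 1373M1 at bin -1 and 1398M1 at bin 1 lie below the other metastasis lines.

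At summits in or within 10 kb of Mycl (chromosome 4, 122995588 to 123002490) the median background was 49.2 and 61.0 times the floor in 1373M1, 94.7 and 80.4 in 12N1G, 114 and 101 in N2N1G, 75.1 and 79.0 in 1398M1, and 60.9 and 60.4 in 1399M4. It was 15.5 and 5.14 in 1398P2 and 16.3 and 12.1 in 1399P1. Every metastasis library was above every lung tumor library. The log2 difference was 2.75, with a two-sided exact permutation p of 0.0476 over the 21 choices of lines, the smallest they can give. In the Nfibf/f lines alone it was 2.61 (two-sided exact permutation p = 0.333 over 6 choices). Mycl was chosen for this comparison with earlier results of these data known, so these p-values give no independent support. The medians rest on 2 to 8 summits per library. Mycl had 4, 5, 5, 5 and 4 regions in 1373M1, 12N1G, N2N1G, 1398M1 and 1399M4, against 1.5 in 1398P2 and 3 in 1399P1 (log2 difference 0.89 ± 0.18, SE, limma adjusted p = 0.499). The region over its start (122995250 to 122997813) had a peak in all 14 libraries, and a region at 122987594 to 122988290 was metastasis-specific.

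Most genes around Mycl had more regions in metastasis lines on average, short of the threshold. Of the genes tested between 121000001 and 124000000, only Smap2, at the edge, had a negative log2 difference (-0.19). At most of these genes the libraries of the 2 tissues overlapped. Pabpc4, for example, had 2 regions in 1398M1 and 2 in both lung tumor lines. Trit1 had 9, 14, 13, 11.5 and 12.5 regions in 1373M1, 12N1G, N2N1G, 1398M1 and 1399M4, against 3 in 1398P2 and 4.5 in 1399P1 (log2 difference 1.5 ± 0.19, SE, limma adjusted p = 0.0969). Its local background, taken in the same way, was 34.6 to 78.3 times the floor in metastasis and 3.18 to 7.95 in lung tumor libraries. Bmp8b, a bone morphogenetic protein, had a mean of 8.1 regions in metastasis and 1.5 in lung tumor lines (2.01, limma adjusted p = 0.467), and Oxct2b, a ketone body enzyme gene that lies within it, had a difference of 1.54 (limma adjusted p = 0.481; 2.41 without replicate 1 of 1398P2). Between 121000001 and 124000000 lay 8 of the 138 metastasis-specific and 2 of the 339 lung-tumor-specific regions. Of the 119314 regions open in at least 1 line, 526 lay in this interval. How far the raised background accounts for the peaks called there was not tested. At Meis1 the background was 1.79 to 3.46 times the floor in metastasis libraries and 1 to 1.69 in the 3 lung tumor libraries with a summit there, and at Nrg3 1 to 2.05 and 1 to 1.85.

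The other bin called was chromosome 6 from 47 to 48 Mb, with 8.2 to 13.8 times the floor in metastasis libraries (median 9.88) and 3.53 to 4.39 in lung tumor libraries (median 4.04). The groups did not overlap (log2 difference 1.29 ± 0.18, SE, limma adjusted p = 0.0359). It was lost in the Nfibf/f lines alone (1.16, limma adjusted p = 0.237) and without any of the lines 12N1G, N2N1G, 1398P2 or 1399P1, with differences of 1.18 to 1.40 over all libraries and lines left out. It was also lost without either library of 12N1G, replicate 1 of 1398P2 (limma adjusted p = 0.113) or replicate 1 of 1398M1 (limma adjusted p = 0.0698). At Ezh2, the histone H3K27 methyltransferase gene in this bin, background was 8.05 to 12.7 in metastasis libraries and 3.92 to 14.2 in lung tumor libraries, so the libraries overlapped there. The bins on either side, from 46 and from 48 Mb, overlapped as well.

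The targeted genes were compared as a check of the labels, although a peak outside a deleted exon does not report the deletion. Nfib had 15, 19, 17.5, 9.5 and 10.5 regions in 1373M1, 12N1G, N2N1G, 1398M1 and 1399M4, against 6 in 1398P2 and 15 in 1399P1 (log2 difference 0.44 ± 0.33, SE, limma adjusted p = 0.79). The groups overlapped, and the log2 difference of Nfib was negative in the Nfibf/f lines alone (-0.09) and with genotype as a covariate (-0.04). It was 0.02 without line 1398P2 and 0.93 without 1399P1. Rb1 and Rbl2 had log2 differences of -0.05 and -0.43 (limma adjusted p = 0.983 and 0.728), and that of Rb1 turned positive without scaling (0.02).

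No gene of any of the 13 lists was called. The axon guidance and neuronal adhesion genes had the most members toward metastasis lines, 19 positive and 4 negative of 23 tested, with a median log2 difference of 0.40 beside -0.01 over all genes. Epha5, an ephrin receptor, had 8.5, 5.5, 7, 2 and 3 regions in 1373M1, 12N1G, N2N1G, 1398M1 and 1399M4, against 0 in 1398P2 and 3 in 1399P1 (2.02). Slit1, a secreted axon repellent, had 21.5, 15, 16, 15.5 and 13.5, against 5 and 12.5 in the lung tumor lines (0.91). Sema6a, a semaphorin, had 6 to 8 in metastasis lines, 1.5 in 1398P2 and 6.5 in 1399P1 (1.01), and Dcx, Ntn1 and Robo2 had differences of 1.06, 0.97 and 0.60. These 6 genes were at an unadjusted limma p under 0.05, a level that 318 of all 7067 genes (4.5%) reached toward metastasis lines. In each of the 6 the lowest value was that of 1398P2, while 1399P1 overlapped the metastasis lines for Epha5, Sema6a, Dcx and Robo2. Without line 1398P2 the differences were 0.70 for Epha5, 0.51 for Slit1, 0.30 for Sema6a, 0.63 for Dcx and 0.18 for Robo2. At the upper end they were 3.31 for Epha5 and 0.99 for Robo2 without 1399P1, and 1.69 for Slit1, 2.1 for Sema6a and 1.93 for Dcx without replicate 1 of 1398P2. The summed level of the list was 234 to 302 in metastasis lines and 136 and 248 in lung tumor lines. The short peak list of replicate 2 of 1398P2 lies beside it, and its part was not tested.

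**Figure D5:**
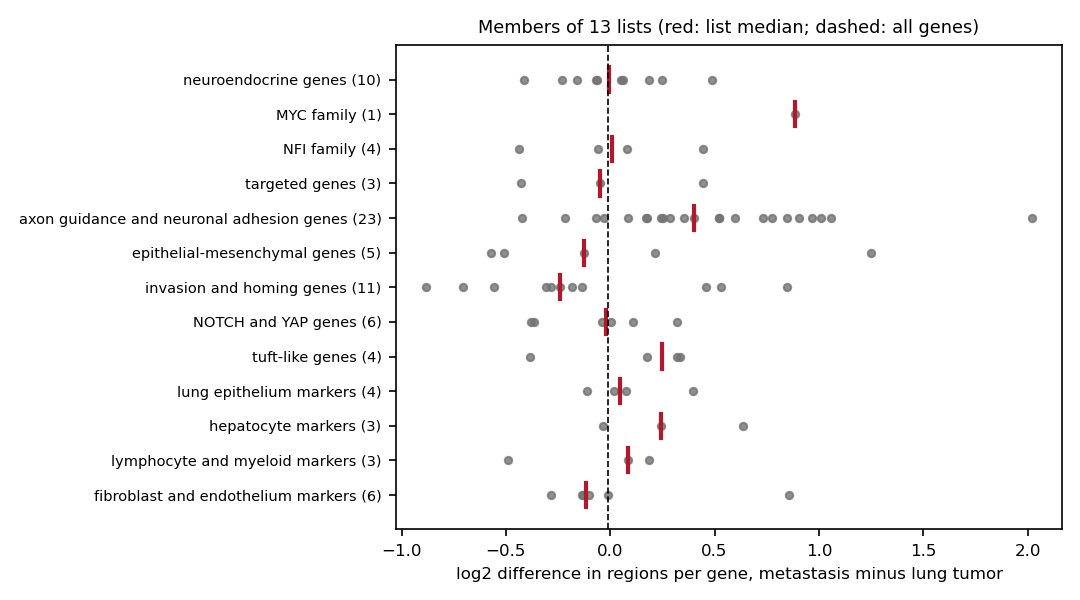
Log2 difference in regions per gene, metastasis minus lung tumor, for each tested member (points) of 13 gene lists, with the number tested in parentheses. The list median (red) of the axon guidance genes is 0.40, and the dashed line marks -0.01, the median of all genes.

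The neuroendocrine genes showed no shift, with 5 positive and 5 negative of 10 tested, a median of -0.01, and summed levels of 64.5 to 74.5 in metastasis and 53 and 74.5 in lung tumor lines. Ddc, an enzyme of amine synthesis, had the one member difference at an unadjusted p under 0.05 (0.49), and did not pass after adjustment. Of the epithelial-mesenchymal genes 2 were positive and 3 negative, with Zeb2 at 1.25 and Zeb1 at -0.51. The invasion and homing genes had 3 positive and 8 negative of 11, with a median of -0.24. Plaur, the urokinase receptor, and Itgav, an integrin subunit, were at -0.71 (-0.46 without N2N1G) and -0.56. The NFI family and the NOTCH and YAP genes had medians of 0.01 and -0.02. Among markers of other cells, the medians were 0.05 for lung epithelium, 0.24 for hepatocytes (3 of 12 tested), 0.25 for tuft-like genes (4 of 8), 0.09 for lymphocytes and myeloid cells and -0.12 for fibroblasts and endothelium. Foxa2, a lung and liver factor (0.40), Tat, a liver enzyme (0.64), and Chat, a tuft cell enzyme (0.34), were at an unadjusted p under 0.05 and none passed after adjustment. Without replicate 1 of 1398P2, Foxa2 was at 0.82 and Chat at 0.79, and without 1399P1 Tat was at 0.42. The summed levels of these marker lists overlapped between metastasis and lung tumor lines, for example 17 to 21.5 and 14 to 20.5 for hepatocytes, and their part in the results above was not tested.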

How the data were processed

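ATAC-seq libraries of 7 lines (14 libraries) had 1 deposited narrowPeak list each, not pooled. The fold enrichment of a summit (a ratio to local background), its -log10 p-value and -log10 q-value (lowest 1.3, a q of 0.05) and a score, which was not used, were deposited by the authors. The submitters' processing notes name MACS2, Bowtie2, SAMtools, Picard and cutadapt 2.10 and the builds mm10 and GRCm38. Roles, settings and read shifts: not given in the sources used here. The names of 10 lists (6 metastasis, 4 lung tumor) carry a human build, although their coordinates fit GRCm38.

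Peaks on chromosomes 1 to 19 and X were merged (at least 1 bp). Fold enrichment and p-value were solved under a Poisson model for local background at 1192085 summits. Pileups that did not come out whole within 0.02 were matched to whole values by their p-value. After this step 100% (rounded) of the pileups of each library were whole. The lists hold no read totals, so depth was read from the lowest background of a library, its floor. Gene extents (RefSeq, GRCm38.p6) had no strand or exons, so no exon, intron or UTR is given. limma 3.58.1 in R 4.3.3 (trend, Benjamini-Hochberg at 0.05) was run on genes averaging 3 or more regions (pseudocount 0.5) and 1 Mb bins with at least 3 summits in every library; the rest used Python 3.11.15. The counting of regions, the solution for background and limma on counts per gene were tested on simulated data. The 12 genes of lowest p in each direction, the 8 specific regions of highest mean percentile, up to 15 genes with a specific region at an end, the listed genes and those at Mycl were named; some genes under this rule are not reported here. The regions, lists and tests were chosen with earlier results of these data known. Alternatives were other thresholds, scalings and samples left out.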

Additional observations from a re-analysis of the deposited data

Results flagged for a closer look

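A metastasis line was flagged in 5 of 47 groups screened, by its gap to the nearest other line as a share of the range. Where the other lines had equal counts, as for Eaf2, Hspbp1 and Rffl, any gap is flagged however small. No chance rate is therefore given. For Eaf2, 1399M4 had 4.0 regions and each other metastasis line 3. For Hspbp1, 1399M4 had 5.0 and the others 3. For Rffl, a ubiquitin ligase, N2N1G had 3.5 and the others 4. For Sh3gl3, 1373M1 had 4.5 and the others 2 to 2.5. Line 1398M1 had 6357 open regions that were closed in both lung tumor lines, and the others had 10356 to 11653.

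Within the pairs of Nfibf/f lines that share a number, Nfib moved in opposite directions. It had 9.5 regions in 1398M1 and 6 in 1398P2, a difference of 3.5, and 10.5 in 1399M4 and 15 in 1399P1, a difference of -4.5. The difference between the pairs was not tested.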

How the results depend on the processing

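Metastasis-specific and lung-tumor-specific counts were 560 (exact permutation p = 0.286) and 3663 (exact permutation p = 0.0952) with a peak in at least 1 library counted as open, and 780 metastasis-specific regions were found in the Nfibf/f lines alone. Leaving out each library or line gave 138 to 949 metastasis-specific regions (949 without 1399M4, 750 without 1399P1, 269 without 1398M1, 234 without 1398P2, 225 without its replicate 1, 216 without 1373M1 and 212 without replicate 1 of 1399P1) and 340 to 3595 lung-tumor-specific ones (3595 without 1398P2, 1586 without its replicate 2, or 1584 without that and the Mycl interval, 1148 without 1399M4, 984 without 1398M1 and 699 without 1399P1), since fewer lists must meet the rule. No gene (0) was called higher in metastasis lines with 12N1G and N2N1G as 1 line, with a mean of at least 1 region, without scaling, with genotype as covariate, with equal numbers of peaks (where Meis1 fell below the filter), in the Nfibf/f lines with line number as block, or, an alternative chosen after seeing the data, with the libraries named for a human build only. The limma adjusted p of Meis1 in the first 4 of these was 0.0575, 0.13, 0.31 and 0.168. With a mean of at least 6 regions 3 genes were called, with q at most 0.01 2 genes, and in the Nfibf/f lines 9 higher and 3 lower. Leaving out libraries or lines gave 0 to 3 genes higher and 0 to 0 lower, 0 to 4 bins higher and 0 to 3 bins lower. Nfibf/f lines alone gave 1 bin lower, and the libraries named for a human build gave 1 bin higher. The background difference at Mycl was 2.61 in the Nfibf/f lines (exact permutation p = 0.333), 2.74 in the libraries named for a human build (exact permutation p = 0.0667), and 2.35 to 3.15 with a library or line left out, where fewer choices of lines limit the smallest p.

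With the replicate block, line as a random effect, 4 genes were called higher (Meis1, Nrg3, Trit1, Mycl) and 0 lower. The libraries share only a number: over 21 pairs of lines the correlation of deviations of same-numbered libraries was -0.10 to 0.11, and 2 pairs exceeded 0.1.

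The log2 difference of Nfib turned to -0.0378 with genotype as covariate and to -0.0865 in the Nfibf/f lines, with line number as block too. The log2 difference of Rb1 turned to 0.0637 (lymph node lines as 1), 0.0171 (not scaled), 0.337 (genotype), 0.372 (equal peaks), 0.333 (Nfibf/f lines, both designs), 0.121 (human-build names) and up to 0.095 from -0.289 with a library or line left out. The causes were not tested.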
